A study of Mus musculus with 12 samples.

Results

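The receptors through which growth factors act on myeloid cells were examined in PUER cells, a line made from myeloid progenitors that lack PU.1. The genes were picked by name, as receptors of this kind, with earlier results of these data known: Csf1r, Csf2ra, Csf2rb (listed as Csf2rb1 in the files), Csf2rb2, Csf3r, Il3ra, Kit and Flt3. All 8 were on the array, read by 12 probes, among 27670 genes or transcripts named there. 7 of the 8 passed the filter on signal and were tested among 15062 genes. The exception was Csf2rb2, whose spot the scanner software had marked as an outlier on 4 of the 12 arrays.

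Growth factor receptors of myeloid cells fall into a pair of families. Csf1r (the M-CSF receptor), Kit (the stem cell factor receptor) and Flt3 are receptor tyrosine kinases, which phosphorylate themselves when their ligand joins a pair of them. Csf3r (the G-CSF receptor), Csf2ra (the chain that binds GM-CSF), Il3ra (the chain that binds IL-3) and the beta chains Csf2rb and Csf2rb2 have no kinase of their own and signal through bound JAK kinases. Csf2rb is the beta chain common to GM-CSF, IL-5 and IL-3, and mice carry a further beta chain, Csf2rb2, that serves IL-3 alone. In blood formation Kit and Flt3 mark early cells, Csf1r marks the monocyte and macrophage lineage, and Csf3r marks the neutrophil lineage.

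PUER cells carry a fusion of PU.1, a transcription factor needed for macrophages, to the hormone-binding part of the estrogen receptor, and 4-hydroxytamoxifen (4-OHT) switches the fusion on. All cells grew in suspension with IL-3, the ligand of Il3ra, and all had been infected with a retrovirus and sorted for GFP. The 4 groups were cells with a control vector before 4-OHT, the same after 24 h in 2 nM 4-OHT, cells with a vector carrying a short hairpin RNA (shRNA) against Hnrnpa0 before 4-OHT, and the same after 4-OHT. Each group held 3 arrays (A, B and C), which the series design describes as independent experiments with separate clones for each vector. No array in the labels is of cells in vehicle alone, so the 4-OHT comparisons set treated cells against untreated ones.

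The 12 one-colour arrays lay on 3 slides. On slide 1 were control array A after 4-OHT and all 3 untreated control arrays; slide 2 carried the other two treated control arrays with untreated shRNA arrays A and B; slide 3 carried the other 4 shRNA arrays. Within a treatment no slide held both vectors, so slide and vector cannot be told apart there without a model. The 75th percentile of spot intensity ran from 1196 to 2583, and 50.3% to 55.7% of spots were well above background, a mark the scanner software sets per spot. Levels below are log2 ratios of a spot's intensity to that percentile of its array, so 0 is a spot at the percentile. Hnrnpa0 was lower with the shRNA, with log2 differences of -1.54 before 4-OHT (adjusted p = 0.013) and -2.10 after it (adjusted p = 0.005), which left 34.3% and 23.3% of the control level. With slide in the model as a fixed or random block, 0 genes of all passed between the vectors before 4-OHT, Hnrnpa0 included, and at most 1 gene after it. Adjusted p-values are from limma with Benjamini-Hochberg adjustment over all genes tested, and 0.05 was the threshold.

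Among the receptors, 4-OHT raised Csf1r and lowered Kit and Csf3r in cells of both vectors. Csf1r was at least 2.64-fold higher after 4-OHT in control cells and at least 3.77-fold higher in shRNA cells. Kit was 3.79-fold lower in control cells and 2.92-fold lower in shRNA cells. Csf3r was 1.47-fold and 1.26-fold lower, but its call in shRNA cells was lost in several other settings, given below. The receptor chain for IL-3, in which the cells grew, showed no difference past the threshold.

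In control cells 1 of the 7 receptors tested rose (17.5% of all genes tested did) and 2 fell (23.0% of all genes did). In shRNA cells 1 rose (16.5% of all genes) and 2 fell (21.8% of all genes). The median change of the 7 receptors was -0.05 in control cells, beside -0.07 over all genes, and -0.27 in shRNA cells, beside -0.08 over all genes. Both of these medians are the value of Csf2rb, whose probe was saturated on most arrays, and Csf2ra and Flt3 were also poorly read, so the group median says little. The tested probes of Kit, Csf3r and Il3ra were saturated on no array and well above background on every array. That of Csf1r was also never saturated, but it was well above background on every array after 4-OHT and on none before it. Csf1r, Kit and Csf3r passed in each vector and Il3ra did not. Csf1r met the filter on signal only through its arrays after 4-OHT, so it could enter the counts only as a rise. No share is drawn from these few genes.

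**Figure D1:**
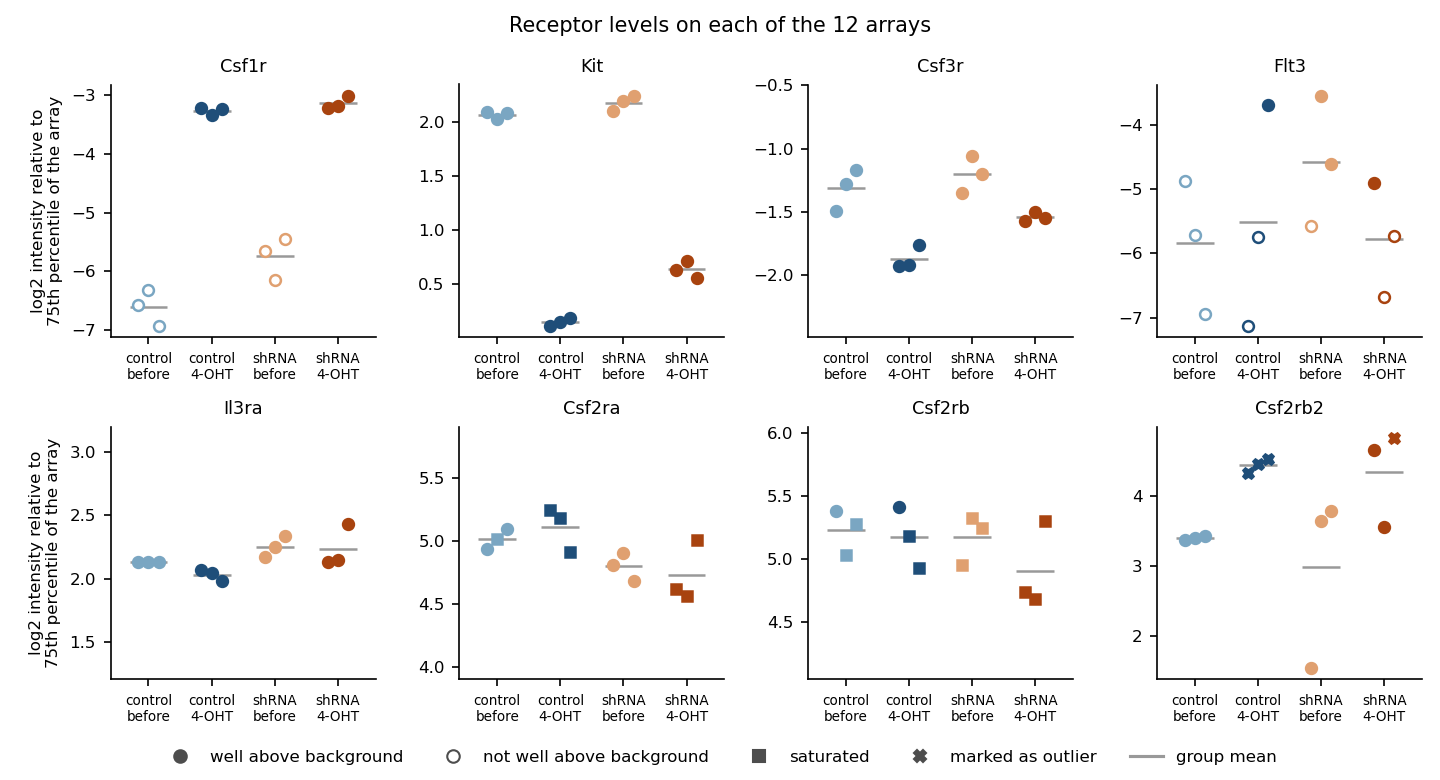
Level of each of the 8 receptors on every array (log2 of spot intensity over the array's 75th percentile), by vector and time; grey lines are group means, open points were not well above background, squares were saturated and crosses were marked as outliers. Csf1r moved from open points near -6 to filled points near -3 with 4-OHT, Kit moved from near 2 to below 1, and the Csf2ra and Csf2rb panels hold mostly squares.

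Csf1r, the receptor for M-CSF and IL-34, was read best by a probe at chr18:61520169-61520228 (build mm7, the build of the array design). In control cells before 4-OHT its levels were -6.58, -6.32 and -6.93, and after 4-OHT -3.21, -3.33 and -3.24. In shRNA cells they were -5.65, -6.14 and -5.45 before 4-OHT and -3.22, -3.18 and -3.01 after it. None of the 6 arrays before 4-OHT was well above background and all 6 after it were, and the groups before and after did not overlap. The fitted change was +3.35 (SE 0.18, 95% CI 2.94 to 3.75, adjusted p = 1.69e-07) in control cells and +2.61 (SE 0.18, adjusted p = 1.30e-06) in shRNA cells.

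Because the level before 4-OHT was not well above background on any array, the fold of Csf1r is a lower bound. It sets the mean after 4-OHT against the lowest signal that counted as well above background, or the probe's own signal where higher, on each array before it. With normexp background correction, which adds an offset to every spot, the fitted changes were 1.18 and 1.17 and still passed. The larger fitted change in control cells therefore does not order the vectors, and the difference between the responses, -0.74, did not pass (unadjusted p = 0.0162, adjusted p = 0.895). Before 4-OHT the vectors differed by 0.86 (adjusted p = 0.0644) between readings none of which was well above background, so no fold is given.

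The other Csf1r probes read less. A probe spanning chr18:61519183-61519543 was well above background on 1 of 6 arrays before 4-OHT and on all 6 after it. It rose by 1.28 in shRNA cells (adjusted p = 0.0216 in the fit of every probe, at least 1.77-fold), but that call was lost with slide as a fixed (adjusted p = 0.201) or random block (0.0625) and with normexp (change 0.36, adjusted p = 0.151). It was also lost without shRNA array B before 4-OHT (0.0849) and without shRNA array B (0.0516) or C (0.0607) after it. Its difference in control cells was 0.93 (adjusted p = 0.0735), where array C before 4-OHT, at -4.61, lay above array C after 4-OHT, at -4.77. The remaining probe, at chr18:61499207-61499266, was not well above background on any array.

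Kit, which binds stem cell factor, was read by a probe at chr5:75074515-75074574 (mm7) that was printed at 10 spots an array. The spots of an array varied by an SD of 0.038 to 0.093. In control cells Kit was at 2.10, 2.03 and 2.08 before 4-OHT and at 0.11, 0.15 and 0.19 after it. In shRNA cells it was at 2.10, 2.20 and 2.24 before and at 0.63, 0.72 and 0.56 after. The groups before and after 4-OHT were far apart in both vectors, and the levels after 4-OHT still lay above the 75th percentile of the array. The fitted change of Kit was -1.92 in control cells (SE 0.06, 95% CI -2.06 to -1.78, adjusted p = 5.84e-09) and -1.54 in shRNA cells (SE 0.06, 95% CI -1.69 to -1.40, adjusted p = 3.32e-08).

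Csf3r, through which G-CSF drives the formation of neutrophils, was read at chr4:125488697-125488756 (mm7). Its levels in control cells were -1.49, -1.28 and -1.17 before 4-OHT and -1.93, -1.92 and -1.76 after it. In shRNA cells they were -1.35, -1.05 and -1.20 before and -1.57, -1.50 and -1.55 after. In each vector all 3 arrays after 4-OHT lay below all 3 before it, though the gap was small beside the spread before treatment. The fitted change was -0.56 in control cells (SE 0.10, adjusted p = 0.00114) and -0.34 in shRNA cells (SE 0.10, adjusted p = 0.0213). The call in shRNA cells was lost with median scaling (adjusted p = 0.0563), normexp (0.0877), no filter on signal (0.0564) and slide as a fixed block (0.124). It was also lost without shRNA array B before 4-OHT (0.0883) and without shRNA array A (0.0635) or C (0.0503) after it.

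Flt3, the receptor tyrosine kinase of early lymphoid and myeloid progenitors, gave 4 readings well above background in 12 arrays. They were control array C after 4-OHT at -3.69, shRNA arrays B and C before 4-OHT at -3.55 and -4.61, and shRNA array A after 4-OHT at -4.91. These lay in 3 of the 4 groups, and the 3 control arrays after 4-OHT alone ran from -7.12 to -3.69. At this signal no difference was detectable: the 95% CI of the change in control cells ran from -1.63 to 2.28.

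Il3ra was read by a probe that spans chr14:12166010-12166920 (mm7), a span longer than the probe. In control cells it was at 2.13 on all 3 arrays before 4-OHT and at 2.07, 2.04 and 1.98 after it. In shRNA cells it was at 2.17, 2.25 and 2.34 before and at 2.13, 2.15 and 2.43 after. The change with 4-OHT was -0.10 in control cells (95% CI -0.29 to 0.09, adjusted p = 0.386) and -0.02 in shRNA cells (adjusted p = 0.899). The interval in control cells leaves room for a small decrease and for no increase above 0.09.

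**Figure D2:**
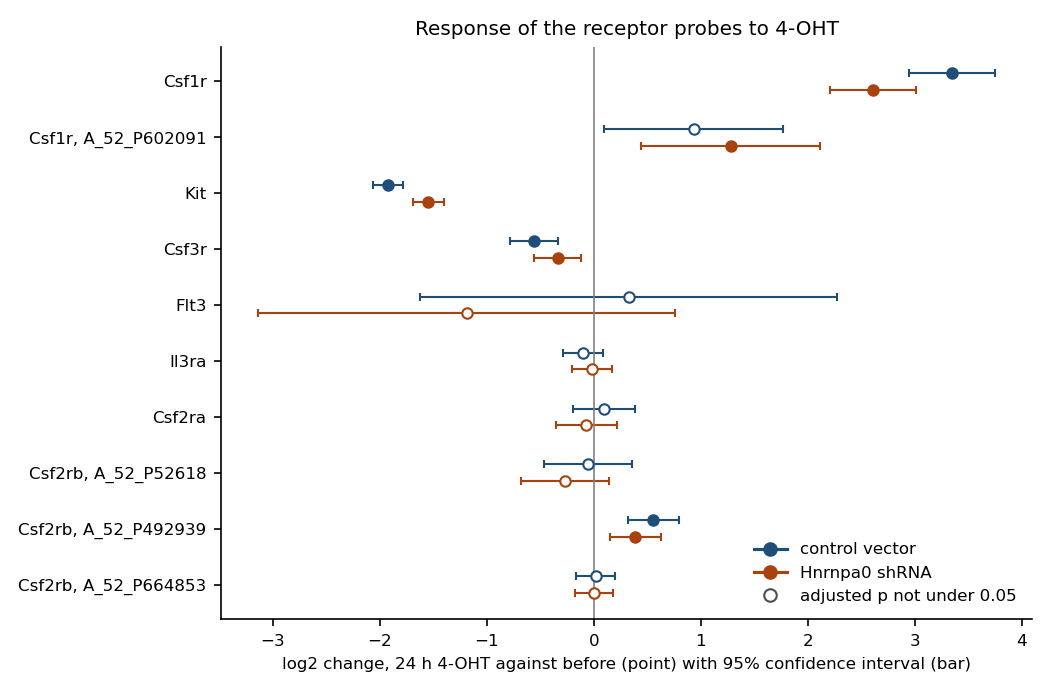
Change with 4-OHT (log2, points) with its 95% confidence interval (lines) for the 7 receptors tested, in control and shRNA cells; open points have an adjusted p not under 0.05. Csf1r lies at +3.35 and +2.61, Kit at -1.92 and -1.54, Csf3r at -0.56 and -0.34, and the interval of Flt3 is the widest.

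Csf2ra, which binds GM-CSF, sat near the ceiling of the scanner. Its probe at chr19:61146986-61147045 (mm7) was saturated on 7 of 12 arrays, among them all 6 after 4-OHT. The levels were 4.94, 5.02 and 5.10 in control cells and 4.81, 4.91 and 4.68 in shRNA cells before 4-OHT, and 5.24, 5.18 and 4.91 and 4.62, 4.57 and 5.01 after it. A saturated spot gives only a least value, so the changes with 4-OHT, 0.09 in control cells (adjusted p = 0.598) and -0.07 in shRNA cells (adjusted p = 0.697), say little about this receptor. Between the vectors after 4-OHT the fit gave -0.38 (adjusted p = 0.0678), and no direction is drawn from it since all 6 spots were saturated.

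The beta chains needed their probes to be taken apart, because those differ in brightness, in position and in how far they can tell Csf2rb from Csf2rb2. Csf2rb and Csf2rb2 are neighbours on chromosome 15 and arose from a common gene, so a probe of one may take up RNA of the other. The stretches shown here are where the brightest Csf2rb probe (chr15:78433719-78433748, mm7, plus strand) and the Csf2rb2 probe (chr15:78365667-78365696, mm7, minus strand) match best. Capitals mark the bases that differ.
Csf2rb, probe A_52_P52618: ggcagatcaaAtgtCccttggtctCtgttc
Csf2rb2, probe A_51_P146753: ggcagatcaaGtgtTccttggtctAtgttc
They share 27 of 30 bases, and the substitutions from Csf2rb to Csf2rb2, counted from 1 at the 5′ end of the stretch, are A11G, C15T and C25A. The other pairs of a Csf2rb probe with the Csf2rb2 probe share at most 16 of 30 bases. How the signal of the 2 similar probes splits between these genes was not tested.

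The brightest Csf2rb probe, which stood for the gene in the tests, was saturated on 10 of 12 arrays. Its intensity stayed between 49806 and 71584 units on all arrays, so its level moved with the percentile of the array. The change with 4-OHT was -0.05 in control cells (adjusted p = 0.845) and -0.27 in shRNA cells (adjusted p = 0.274), and neither can be read as a steady level. 2 dimmer Csf2rb probes were saturated on no array and well above background on all of them. They are printed to show that they are different letters of the same gene, upstream of the saturated probe, and neither shares more than 16 of 30 bases with the Csf2rb2 probe. No letters are in capitals.
Csf2rb, probe A_52_P492939: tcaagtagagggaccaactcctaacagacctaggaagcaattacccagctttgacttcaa
Csf2rb, probe A_52_P664853: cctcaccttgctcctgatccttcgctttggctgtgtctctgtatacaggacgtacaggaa
The first lies at chr15:78431162-78431221 (mm7, plus strand), and 1 of its 3 reading frames has no stop codon. The second spans chr15:78429378-78429640 (mm7, plus strand), a stretch longer than the probe, and 2 of its 3 frames have none. Which exons they lie in was not analysed here.

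These 2 probes of Csf2rb disagreed about 4-OHT. The probe at chr15:78431162-78431221 was at -0.80, -0.84 and -1.02 in control cells before 4-OHT and at -0.55, -0.19 and -0.26 after it, and in shRNA cells at -0.35, -0.44 and -0.42 before and -0.15, 0.01 and 0.10 after. It was higher on every array after 4-OHT than on any array before it with the same vector. It rose by 0.56 in control cells (SE 0.11, adjusted p = 0.00187, 1.47-fold) and by 0.39 in shRNA cells (SE 0.11, adjusted p = 0.0159, 1.31-fold). In that fit of every probe, 17.6% of all probes tested rose in control cells and 16.6% in shRNA cells.

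The probe at chr15:78429378-78429640 was at -0.48, -0.39 and -0.48 in control cells before 4-OHT and at -0.54, -0.39 and -0.37 after it. In shRNA cells it was at -0.34, -0.41 and -0.20 before and at -0.33, -0.38 and -0.23 after. The groups overlapped in both vectors. Its change was 0.02 in control cells (95% CI -0.16 to 0.20, adjusted p = 0.892) and 0.00 in shRNA cells (95% CI -0.18 to 0.18, adjusted p = 0.981), so the interval leaves out a rise as large as that of the other probe in either vector.

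Within an array the log2 ratio of the first probe to the second needs no scaling between arrays. It was -0.32, -0.45 and -0.54 in control cells before 4-OHT and -0.01, 0.20 and 0.11 after it, and -0.01, -0.03 and -0.22 and then 0.18, 0.39 and 0.33 in shRNA cells. All 3 arrays after 4-OHT lay above all 3 before it with each vector. The mean difference within a vector was 0.46 (exact permutation test, two-sided, 400 relabellings within vectors, p = 0.005, the smallest p they can give). This ratio was chosen after the values had been seen, and groups that do not overlap give the smallest p by themselves, so this p adds no support. The first probe differed with 4-OHT in control cells, with a fixed slide block, by 0.34 (adjusted p = 0.0634). Within slide 1 it was 0.34 by construction, since the fixed block takes this response from slide 1 alone. Within slide 3, in shRNA cells, it was 0.41. Each slide had a single array at 1 of the times. In shRNA cells the call of the first probe was lost without array B before 4-OHT (adjusted p = 0.0532) or array C after it (adjusted p = 0.0563).

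**Figure D3:**
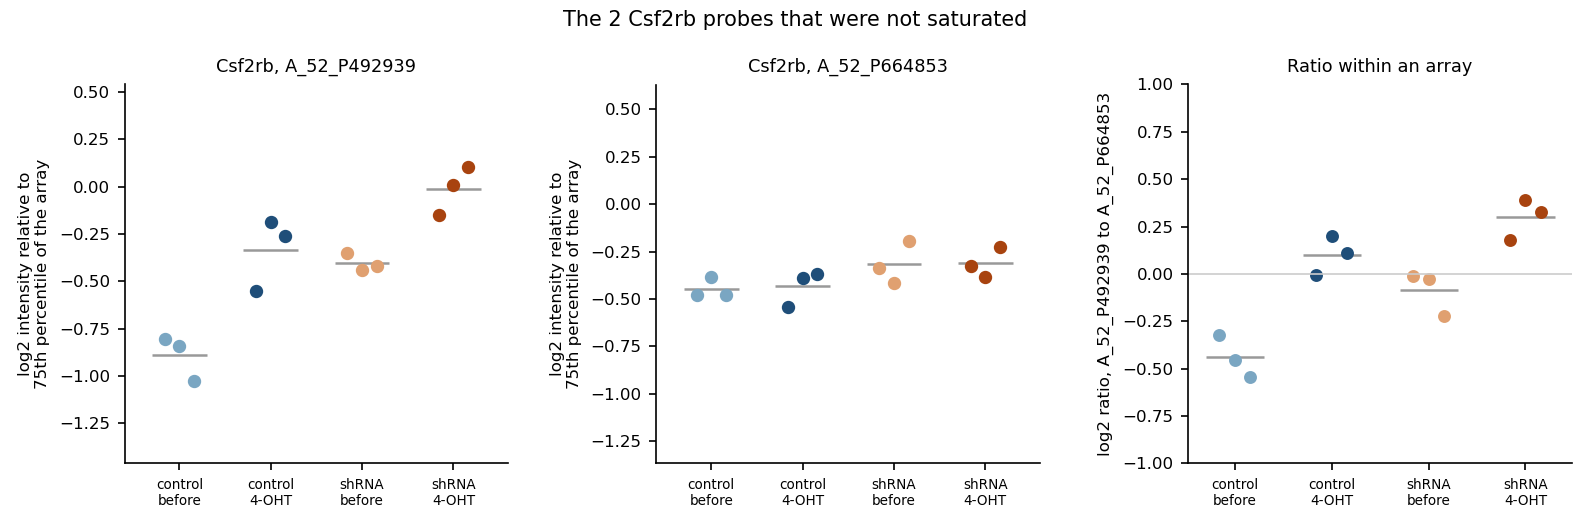
Levels of the 2 unsaturated Csf2rb probes on every array (log2 over the 75th percentile) and the log2 ratio of the first to the second within each array, by group, with group means. The ratio runs from -0.54 to -0.32 in control cells before 4-OHT and from 0.18 to 0.39 in shRNA cells after it, while the second probe stays between -0.54 and -0.20.

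Csf2rb2, the beta chain of the mouse that serves IL-3, could not be tested under the filter, since the software had marked its spot on all 3 control arrays after 4-OHT and on shRNA array C after it. With the marked spots kept, its levels in control cells were 3.37, 3.40 and 3.43 before 4-OHT and 4.33, 4.46 and 4.53 after it. In shRNA cells they were 1.55, 3.64 and 3.78 before and 4.65, 3.56 and 4.82 after. shRNA array A before 4-OHT stood far below the others. The difference with 4-OHT in control cells was 1.04, with adjusted p = 0.140 over all arrays and 0.0126 without that array, and in shRNA cells it was 1.35 (adjusted p = 0.0621) and 0.63 without it (adjusted p = 0.138). These values rest on spots that were marked and on a probe close to Csf2rb in sequence.

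The Hnrnpa0 vector was then set against the control vector. Before 4-OHT, 0 of the 7 receptors tested passed in limma, and 0.378% of all genes did. At an unadjusted p under 0.05 lay 1 receptor, Csf1r, whose readings were not well above background in either group. Csf2rb was counted there by its saturated probe. In the limma fit of every probe, its unsaturated probe A_52_P492939 differed by 0.49 (unadjusted p = 0.00098, adjusted p = 0.0682). The differences of Csf3r, Kit and Il3ra were 0.11, 0.11 and 0.12, with adjusted p of 0.530, 0.331 and 0.417. The median of the 7 receptors was 0.11, beside -0.03 over all genes.

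After 4-OHT, Kit and Csf3r were higher with the shRNA, so 2 of the 7 receptors were higher (7.84% of all genes tested were) and 0 lower (8.82% of all genes were). Kit was 1.40-fold higher: the shRNA arrays, at 0.63, 0.72 and 0.56, all lay above the control arrays, at 0.11, 0.15 and 0.19. The difference was 0.49 (SE 0.06, 95% CI 0.34 to 0.63, adjusted p = 0.0074).

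Csf3r was 1.26-fold higher with the shRNA after 4-OHT (difference 0.33, SE 0.10, adjusted p = 0.0482), and all 3 shRNA arrays lay above all 3 control arrays. That call sat at the threshold. It was kept in 11 of 28 other settings, where the adjusted p ran from 0.0293 to 0.851. Among these settings, the 12 that left out a single array kept it in 3 cases. The Kit call was kept in 26 of 28 settings and without any 1 of the 12 arrays, where the highest adjusted p was 0.0383.

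With slide in the model the calls between the vectors after 4-OHT were lost, while the calls of Csf1r and Kit with 4-OHT were kept. How far the slide itself shifts these levels was not tested. With slide as a fixed block, Kit differed between the vectors after 4-OHT by 0.37 (adjusted p = 0.583) and Csf3r by 0.29 (adjusted p = 0.851), and with slide as a random block the values were 0.45 (adjusted p = 0.0817) and 0.33 (adjusted p = 0.259). No receptor, and at most 1 gene of all, passed in either model. The 4-OHT responses under the fixed block were 3.40 and 2.31 for Csf1r, -1.96 and -1.61 for Kit and -0.62 and -0.34 for Csf3r in control and shRNA cells. Slides 1 and 3 each held 1 vector at both times. The fixed block takes each 4-OHT response from that slide alone, so the differences within those slides have the same values by construction and are no separate check. There 1 of the times had a single array, which is assumed to vary like the others, so no p-value is given. The part of the slide in the vector differences cannot be told apart from that of the vector by direct comparison, since no slide holds both vectors within a treatment.

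**Figure D4:**
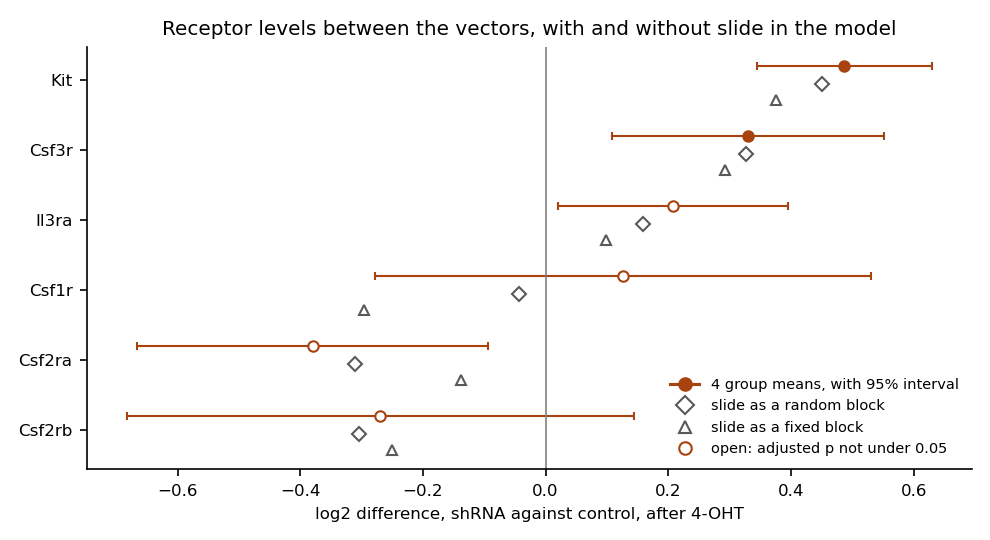
Difference between shRNA and control cells after 4-OHT (log2) for 6 receptors, from the model without slide (points with 95% confidence interval) and with slide as a random (diamonds) or fixed (triangles) block. Kit lies at 0.37 to 0.49 in the 3 models and Csf3r at 0.29 to 0.33, but neither passes in the models with slide; Csf1r moves from 0.13 to -0.30.

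The remaining receptors did not pass between the vectors after 4-OHT. Il3ra differed by 0.21 (95% CI 0.02 to 0.39, adjusted p = 0.113), and its groups did not overlap at either time. The Csf2rb probe at chr15:78431162-78431221 differed by 0.49 before 4-OHT (adjusted p = 0.0682) and by 0.32 after it (adjusted p = 0.0652), again with no overlap between the vectors. The other unsaturated Csf2rb probe differed by 0.13 and 0.12 (adjusted p = 0.338 and 0.310). Csf1r differed by 0.13 (adjusted p = 0.656) and Flt3 by -0.25 (adjusted p = 0.862). The median of the 7 receptors was 0.13, beside -0.04 over all genes.

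Taking both times together gives 6 arrays for each vector. With labels exchanged within each treatment, exact permutation tests (two-sided, 400 relabellings) gave a mean difference of 0.30 for Kit and 0.40 for the first unsaturated Csf2rb probe. For Il3ra the mean difference was 0.16. Each of these 3 quantities had an exact p = 0.005, the smallest p the relabellings can give, and 0.010 after Benjamini-Hochberg adjustment over the family of 6. Csf3r differed by 0.22 and the second Csf2rb probe by 0.13 (exact p = 0.025 for both, 0.025 adjusted), and the ratio of the Csf2rb probes by 0.28 (exact p = 0.010, adjusted 0.015). The 6 quantities were picked after their values had been seen, and an adjustment over them does not make up for that choice. For Kit, Il3ra and the first Csf2rb probe the vectors did not overlap at either time, which by itself gives the smallest p. In limma, Il3ra and the unsaturated Csf2rb probes did not pass at either time. The permutation p-values therefore add no support for a difference. Arrays of untreated and treated cells may share a clone, and the slide was not taken into account. Under a fixed slide block the second Csf2rb probe turned in direction, to -0.09 before 4-OHT and -0.11 after it, and no receptor passed between the vectors at either time. Csf2ra, which is not among the 6, had fitted differences of -0.22 before 4-OHT and -0.38 after it. Before 4-OHT 1 control spot and 0 shRNA spots of Csf2ra were saturated. After it all of them were, so no direction is drawn from that value.

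The difference between the vectors in the 4-OHT response was tested by itself. It passed for 0 of the 7 receptors and for 0.0% of the 15062 genes in limma, with 793 genes at an unadjusted p under 0.05. Kit came nearest: its decrease was smaller by 0.38 in shRNA cells (SE 0.09, 95% CI 0.17 to 0.58, unadjusted p = 0.0019, adjusted p = 0.659). For Csf3r the difference was 0.22 and for the first unsaturated Csf2rb probe -0.17 (adjusted p = 0.957 and 0.955). The higher Kit after 4-OHT is therefore not shown to be a smaller response. The median of the 7 receptors was -0.16, beside -0.004 over all genes.

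Summed levels of some cell type markers moved along with the receptors. Such sums weight the brightest markers most, and saturated spots were not left out of them. Summed over the 10 macrophage markers, the level as a multiple of the 75th percentile was 45.1 to 59.1 in control cells before 4-OHT and 83.6 to 96.7 after it, and 41.8 to 50.1 and then 58.4 to 73.6 in shRNA cells. The number of these markers well above background went from 6 to 10 of 10 in both vectors, beside the appearance of Csf1r. Summed over 6 progenitor markers the level was 35.7 to 36.6 and then 11.2 to 14.1 in control cells. In shRNA cells it was 33.5 to 37.2 and then 14.8 to 16.6, beside the fall of Kit and its higher level with the shRNA. The same 4 of the 6, Gata2, Hlf, Ly6a and Myb, were well above background in every group. Most of this sum is Myb, at mean log2 levels of 4.91 and then 3.44 in control cells and 4.79 and then 3.69 in shRNA cells. Between the vectors after 4-OHT Myb differed by 0.25 and did not pass in limma (adjusted p = 0.0842).

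The 10 neutrophil markers, beside Csf3r, summed to 95.5 to 111 before and 54.1 to 73.4 after 4-OHT in control cells. In shRNA cells they summed to 90.2 to 115 before and 54.6 to 66.6 after. The number of them well above background went the other way, from 7 to 9 in control cells and from 8 to 9 in shRNA cells. Kit is also carried by mast cells, and the 10 mast cell and basophil markers on the array summed to 1.36 to 1.44 and then 0.673 to 0.819 in control cells, and to 1.40 to 1.56 and then 0.756 to 0.791 in shRNA cells. Of these, Hdc, Mcpt8 and Ms4a2 were well above background in all 4 groups, and Cma1, Cpa3 and Tpsab1 in none. Of 5 fibroblast and stroma markers, Col1a2 and Pdgfrb were well above background in all groups, and the 5 summed to 1.72 to 1.89 before and 0.498 to 0.546 after 4-OHT in control cells, and to 1.85 to 2.07 and then 0.577 to 0.742 in shRNA cells, a decrease that ran beside that of Kit. Markers of erythroid cells, megakaryocytes, T cells and B cells summed to less than 0.5 on every array. The part of such markers in the receptor values was not tested. In RNA from a whole culture, fewer cells that carry a receptor and less of its RNA in each cell cannot be told apart.

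The ligands of these receptors were mostly at low signal in the cells. Of 8 ligand genes on the array, 6 did not pass the filter on signal: Csf1, Csf2, Csf3, Il3, Il5 and Kitl. The other 2 fell with 4-OHT in each vector, where 23.0% of all genes fell in control cells and 21.8% in shRNA cells. Il34, which shares Csf1r with M-CSF, fell, with changes of -2.16 in control cells (adjusted p = 1.08e-08) and -2.17 in shRNA cells. Flt3l, the ligand of Flt3, fell less, with changes of -0.29 (adjusted p = 0.0331) and -0.52 (adjusted p = 0.00162).

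Other receptors for cytokines of blood cells mostly rose. Of 11 tested among 16, 8 rose and 1 fell in each vector (17.5% and 16.5% of all genes rose and 23.0% and 21.8% fell), with a median of 1.00 in control cells and 0.86 in shRNA cells, beside -0.07 and -0.08 over all genes. Il1rl1, the receptor of IL-33, was at least 10.4-fold and 9.28-fold higher. Ifngr2, a chain of the interferon gamma receptor, rose by 1.81 in both vectors (3.51-fold). Il10ra, the chain that binds IL-10, was at least 1.84-fold and 2.60-fold higher. Il1rl1 and Il10ra were well above background on all 6 arrays after 4-OHT and on none before it. They met the filter on signal only through the treated arrays, so they could enter the count only as rises.

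Signal transducers of the receptors changed in both directions. Of 34 tested, 11 rose and 6 fell in control cells and 12 rose and 6 fell in shRNA cells, beside 17.5% higher and 23.0% lower of all genes in control cells and 16.5% and 21.8% in shRNA cells. The medians were 0.04 and 0.02, beside -0.07 and -0.08 over all genes. Tyrobp, an adaptor used by macrophage receptors, rose by 5.27 and 5.31. Pik3cd, a lipid kinase subunit of leukocytes, rose by 2.03 and 1.83. Jak2, the kinase that the beta chains bind, rose by 1.76 in control cells (3.38-fold, adjusted p = 2.23e-08) and by 1.72 in shRNA cells.

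The inhibitors were also mixed, with 9 of 21 tested higher and 4 lower in control cells, and 8 higher and 4 lower in shRNA cells, to be read against the same shares of all genes. The medians were 0.18 and 0.24, beside -0.07 and -0.08. Sla, an adaptor that lowers receptor signalling, rose by 6.73 and 6.36. Ptpn6, a phosphatase that acts on Kit and on the cytokine receptors, rose by 1.56 and 1.63. Ptpn2, a phosphatase of JAK kinases, fell (-1.08 and -0.95).

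Transcription factors known to bind the receptor genes mostly fell. Of 19 tested, 12 fell and 3 rose in control cells, and 14 fell and 2 rose in shRNA cells, where 23.0% and 21.8% of all genes fell and 17.5% and 16.5% rose. The medians were -0.70 and -0.65, beside -0.07 and -0.08. Gfi1, a repressor needed by neutrophils, fell (-2.44 and -1.87), with its spot saturated on 2 arrays. Myb, which keeps progenitors dividing, fell (-1.47 and -1.10). Egr2, a factor of macrophages, rose by 2.82 and 2.42.

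**Figure D5:**
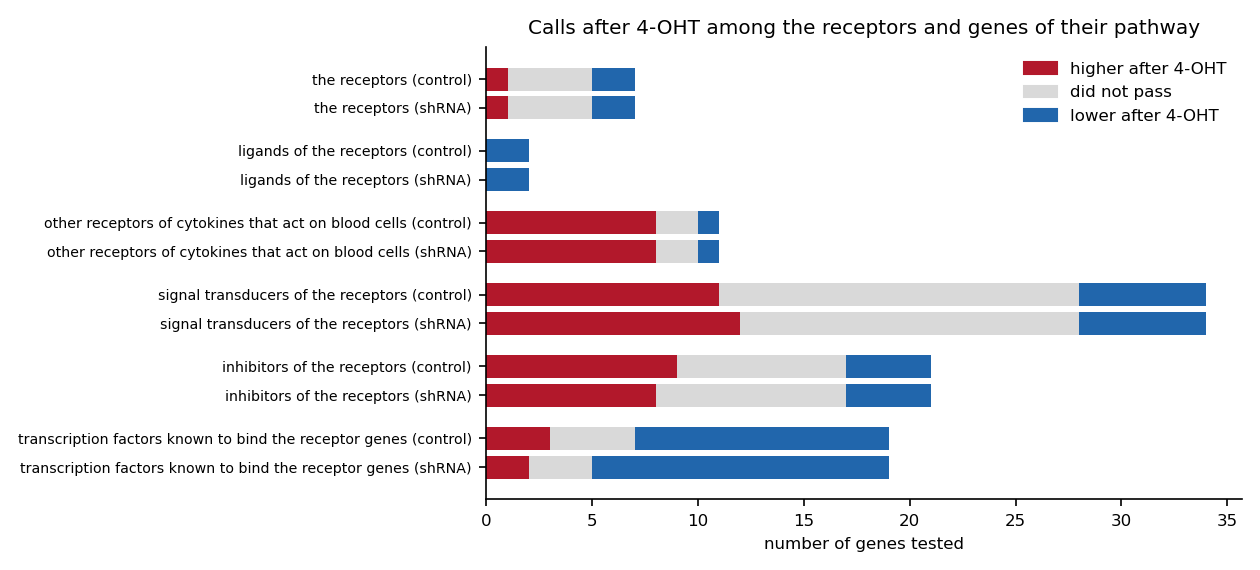
Number of genes higher, lower or not passing the test with 4-OHT in control and shRNA cells, for the 7 receptors tested and for 5 lists of related genes. Other cytokine receptors hold 8 higher of 11 in both vectors, and transcription factors hold 12 and 14 lower of 19.

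Between the vectors, Shc1, an adaptor downstream of the receptors, was lower with the shRNA, with differences of -0.53 before 4-OHT (adjusted p = 0.024) and -0.57 after it (adjusted p = 0.0074). After 4-OHT, of 34 transducers tested, 5 were higher and 4 lower. The transducers Jak1, Plcg1, Sos1, Tyk2 and Vav1 were higher, by 0.24 to 0.51, and Pik3r1 and Stat3 were lower, with differences of -0.58 and -0.40. Among the 21 inhibitors tested, 3 were higher (Socs2, Socs4 and Spred2) and 3 lower (Socs1, Dok2 and Pias1). Among the 19 transcription factors tested, 4 were higher and 3 lower: Gfi1 was higher by 0.61, and Cebpa, Ets2 and Runx1 were also higher. Mitf was lower, with a difference of -1.41, as were Egr2 (-1.03) and Jun (-0.49). Il1rl1, 1 of 11 other receptors, had a difference of -0.55 (adjusted p = 0.0415). Of all genes 7.84% were higher and 8.82% lower after 4-OHT. These calls meet the same limit of the slide as those of Kit and Csf3r.

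Each receptor was set beside the genes with the most similar levels over the 12 arrays, by Pearson's r among 11530 genes, as a description. The arrays share the 4-OHT treatment, so r mostly reads that contrast. Kit ran closest to Ifnlr1 and Arhgef6 (r = 0.997 for both) and to Gfi1 (0.996). Csf1r ran closest to Arl6ip5 (0.991), Pla2g15 (0.991) and Mcub (0.989), and Csf3r to Zbtb40 (0.962), Gabpb1 (0.960) and Zcchc4 (0.957). Il3ra ran closest to Pou4f1 (0.943), Edc3 (0.938) and Cyp17a1 (0.934), and Flt3 only as close as 0.803 to Slc35f1, 0.789 to Klf3 and 0.758 to Lrrc23.

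For the saturated receptors the likeness mostly named other bright spots. Csf2rb ran with Atp6v1f (0.989), Kpna2 (0.988) and Ddx5 (0.987), which were saturated on 12, 10 and 9 arrays. Csf2ra ran with Wdr1 (0.962), Gstp1 (0.950) and Ppp1cc (0.948), saturated on 6, 6 and 4. Among the receptors themselves r was 0.896 for Kit with Csf3r, -0.937 for Csf1r with Kit, and -0.774 for Csf1r with Csf3r.

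PUER cells carry the PU.1 fusion that 4-OHT switches on, so the promoter windows of the receptors were searched for a PU.1-type ETS word, GAGGAAG, on both strands. The windows run from 250 bases before to 50 bases after a gene's start and come from RefSeq on GRCm38.p6. They were at hand for 6 of the 8 receptors, and 4 held the word: Kit and Csf3r, which fell with 4-OHT, and Csf2ra and Csf2rb2. Of 32851 windows of all genes, 13.6% held it. From each of the 4 a stretch of 100 bases is shown so that the word and its place can be seen; capitals mark the word, or its reverse complement.
Kit, chr5:75574737-75574836, plus strand: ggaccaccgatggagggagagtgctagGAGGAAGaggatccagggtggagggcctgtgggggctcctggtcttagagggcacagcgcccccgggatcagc
Csf3r, chr4:126024527-126024626, plus strand: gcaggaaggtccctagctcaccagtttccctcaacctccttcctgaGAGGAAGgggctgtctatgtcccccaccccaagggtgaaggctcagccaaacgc
Csf2ra, chr19:61228419-61228518, minus strand: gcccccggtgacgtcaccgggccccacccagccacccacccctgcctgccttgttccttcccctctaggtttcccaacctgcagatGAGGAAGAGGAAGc
Csf2rb2, chr15:78305836-78305935, minus strand: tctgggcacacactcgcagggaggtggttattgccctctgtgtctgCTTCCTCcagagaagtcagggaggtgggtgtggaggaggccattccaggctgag
In Kit the word starts 223 bases before the start of the gene, or 227 before another listed start, and in Csf3r 86 bases before it. In Csf2rb2 its reverse complement starts 168 bases before it and again 29 bases after it. In Csf2ra 2 copies that share 1 base begin 14 and 8 bases before the start. A match describes letters and not a bound site.

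Of the C/EBP words, TTGCNNA (in 37.1% of all windows) was in the window of Il3ra and TTGTGNA (in 11.9%) in that of Csf2rb2. The RUNX word TGTGGT (in 16.8%) and the GATA word AGATAA (in 11.2%) were in none of the receptor windows at hand. The window of Flt3 held none of the 5 words. Csf1r and Csf2rb were not analysed here in this way.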

How the data were processed

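RNA of 12 cultures was read on 12 one-colour Agilent arrays, 3 for each of 4 groups. The authors read the scans with Feature Extraction, version 9.5.3.1 per the file headers (9.5 per the submitters' processing notes); the design is 014868, annotated on mm7. For each spot they deposited a background-subtracted Cy3 intensity on a linear scale, with no scaling between arrays.

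Here log2 of that intensity, less log2 of each array's 75th percentile, was averaged over the spots of a probe, leaving out spots marked as outliers. A gene was read by its brightest probe, provided that 3 or more of the 12 arrays read it well above background and each group had it on 2 or more. Tests used limma 3.58.1 in R 4.3.3 on all 12 arrays (4 group means, 5 contrasts, no covariate), with Benjamini-Hochberg adjustment over 15062 genes; every probe was also fitted by itself. p-values rest on separate clones, and 3 arrays a group limit the precision. The scripts were tested on simulated data.

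The receptors and lists were chosen with earlier results of these data known. From each list, the text names the 3 genes with the largest change in control cells among those past the threshold, and every gene past it between the vectors, except 1 result that is not reported here; for each receptor it names the 3 genes of highest r. Array letters were not used to pair samples. Scaling, background correction, filters, choice of probe, slide, replicate blocks and leaving out arrays were varied.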

Additional observations from a re-analysis of the deposited data

How the results depend on the processing

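Of the values recomputed for each gene under other settings, none of the 4-OHT changes of Csf1r and Kit lost its direction or its call. The Csf1r probe with the smaller rise, fitted by itself, lost its call in shRNA cells in several settings, as given above. The decrease of Csf3r kept its direction in all settings, but its call in shRNA cells was also lost in several. The change of Csf1r in control cells ran from 1.18, with normexp, to 3.63, with quantile scaling, and that of Kit from -1.96 to -1.88. Between the vectors after 4-OHT the number of receptors called was 2, and became 1 with median scaling, with normexp, with no filter on signal, with the mean of a gene's probes, with a fit of only the 2 groups compared and with the 75th percentile over unmarked spots. It was 0 in both models with a slide block, fixed and random, and 1 to 3 when an array was left out. Before 4-OHT 1 receptor, Csf1r, was called with quantile scaling (difference 1.15, adjusted p = 0.0387) and 0 otherwise. In most settings these counts read Csf2rb by its saturated probe. Its unsaturated probe A_52_P492939, fitted by itself, was called before 4-OHT in 3 of 19 settings. These were quantile scaling (adjusted p = 0.0489), median scaling (0.0474) and leaving out control array A after 4-OHT (0.0404). After 4-OHT it was called in 1 of 19, with median scaling (0.0292), and at neither time with a slide block. The number of genes called between the vectors ran from 0 to 607 before 4-OHT, beside 57, and from 0 to 3788 after it, beside 2510. Leaving out 1 array took the first count as low as 0 (control array C before 4-OHT) and as high as 498 (shRNA array A before it), and the second as low as 208 (control array B after 4-OHT). After 4-OHT Il3ra was called with quantile scaling (adjusted p = 0.0486) and Csf2ra in 3 settings, 2 of which left out an array.

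Array letters did not meet the rule for pairing, which asks for a same-letter correlation over 0.1 in every pair: it was met by 2 of 3 pairs for 4-OHT in control cells, 1 of 3 in shRNA cells, 0 of 3 between the vectors before 4-OHT and 2 of 3 after it. Whether letters mark a shared clone is not given in the sources used here. With the replicate block no call of a receptor changed, while 178 genes in place of 57 differed between the vectors before 4-OHT. Saturation limits Csf2ra and Csf2rb, and signal near background limits Flt3 and Csf1r before 4-OHT.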
